A study of Mus musculus with 6 samples.

Results

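The 9 genes described here, *Sox10*, *Foxd3*, *Tfap2a*, *Tfap2b*, *Ets1*, *Ednrb*, *Erbb3*, *Ngfr* and *Mitf*, were chosen by name as genes of the neural crest and of the glial precursors that arise from it. Each was found at 1 entry of its own among the 24207 loci of a gene-level RNA-seq table, and no other gene shared its locus. The RNA came from 6 male embryos dissected at E9.5, of which 3 were *Smchd1*+/+ and 3 were homozygous for the *MommeD1* allele of *Smchd1* (*Smchd1*MommeD1/MommeD1), an allele from a chemical mutagenesis screen that every cell of those embryos carried. The sample labels give the strain background of both groups as C57Bl6/J x FVB/n, whereas the study's text describes a backcross of these embryos to another strain. Embryos came from crosses of heterozygous parents, and a yolk sac from each was used for genotyping.

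The neural crest forms at the border of the neural tube, leaves it and migrates through the embryo. It gives rise to peripheral neurons, to the glia of nerves and ganglia, to pigment cells and to much of the mesenchyme of the face. *Foxd3*, *Tfap2a* and *Sox10* encode transcription factors that act early in this lineage, and the receptors encoded by *Ednrb*, *Erbb3* and *Ngfr* are carried by migrating crest cells and by glial precursors. At E9.5 crest cells are still migrating, and cranial ganglia have begun to form.

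Transcript levels are given in FPKM, the fragments mapped to a gene scaled by transcript length and by sequencing depth. For each genotype the authors deposited a single pooled value per locus, drawn from 3 embryos, so no spread between embryos can be given and no difference between the genotypes was tested. Log2 ratios are for *Smchd1*MommeD1/MommeD1 over *Smchd1*+/+ embryos, with 0.1 FPKM added to each value, and a ratio of at least 1.5-fold in either direction at an average of 1 FPKM or more is counted as higher or lower. *Smchd1* itself was at 2.12 FPKM in the mutant and 34.0 FPKM in the wildtype embryos. Of the 12345 loci that reached a mean of 1 FPKM, 3.54% were higher and 1.46% were lower in the mutant embryos by this rule, with a median log2 ratio of -0.01. The tissue was the whole embryo, so fewer cells of a type and less RNA per cell cannot be told apart.

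None of the 9 genes differed by 1.5-fold between the genotypes. Of the 8 genes that reached a mean of 1 FPKM, 0 were higher and 0 were lower by the 1.5-fold rule, which 3.54% and 1.46% of all counted loci met, and their log2 ratios ran from -0.20 to 0.51 with a median of -0.07. Of the 9 genes, 6 had log2 ratios from -0.20 to -0.03 and 3 had log2 ratios from 0.36 to 0.51. The latter were *Ngfr*, *Tfap2b* and *Ednrb*, and these were the 3 counted as higher when the rule was relaxed to a difference of 25%. That rule was met by 8.89% of all counted loci as higher and 4.98% as lower, and by 0 of the 9 genes as lower. All 9 genes were detected in both genotypes, from just under 1 FPKM for *Mitf* to about 20 FPKM for *Ets1*.

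The 9 genes lie on 9 autosomes of MM10, none of them the chromosome of *Smchd1* (chromosome 17). In the authors' table, with starts counted from 1, the transcription factor genes are at chr15:79154913-79164490 (*Sox10*), chr4:99656299-99658671 (*Foxd3*), chr13:40715353-40738154 (*Tfap2a*), chr1:19208914-19238833 (*Tfap2b*), chr9:32636219-32757823 (*Ets1*) and chr6:97807058-98021358 (*Mitf*). The receptor genes are at chr14:103814621-103844327 (*Ednrb*), chr10:128567529-128589698 (*Erbb3*) and chr11:95568821-95587698 (*Ngfr*).

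**Figure D1:**
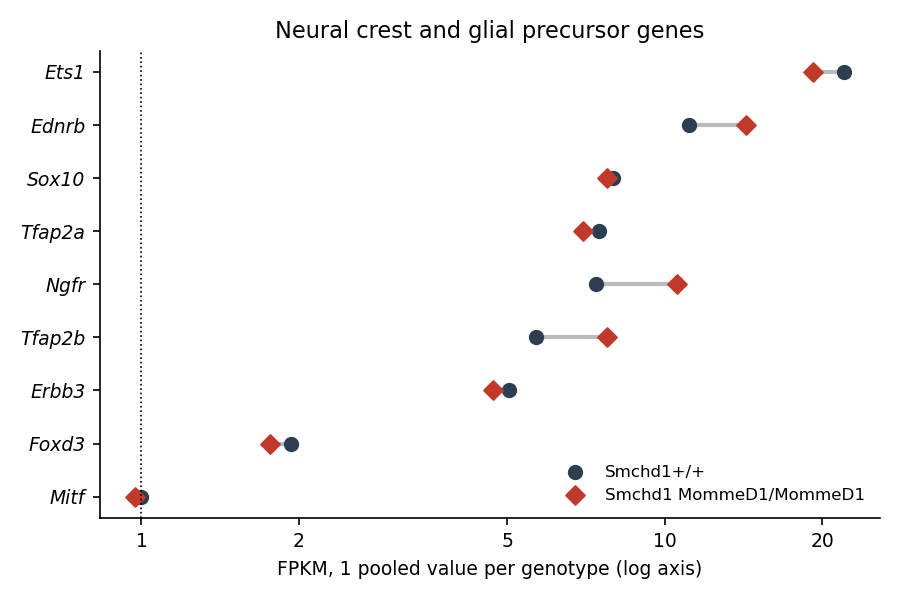
FPKM of each of the 9 genes (log axis) in *Smchd1*+/+ (dark circles) and *Smchd1*MommeD1/MommeD1 embryos (red diamonds), 1 pooled value per genotype, with the dotted line at 1 FPKM. The pairs of points nearly coincide for *Sox10* and *Mitf*, and the red point lies to the right for *Ngfr*, *Tfap2b* and *Ednrb*.

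*Sox10*, a SoxE transcription factor kept on in the glial lineage of the crest, was at 7.74 FPKM in the mutant and 7.95 FPKM in the wildtype embryos. Its log2 ratio was -0.04 and turned just above 0 when both genotypes were scaled to the same total FPKM, as did that of *Mitf*. *Foxd3*, a forkhead factor of premigratory crest, was at 1.76 and 1.93 FPKM, a log2 ratio of -0.13. A microRNA gene annotated within *Foxd3* covered 3.83% of its exonic bases.

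The AP-2 factors of the set differed in direction. *Tfap2a*, which is needed for crest induction and is also expressed in surface ectoderm, was at 6.98 FPKM in the mutant and 7.47 FPKM in the wildtype embryos, a log2 ratio of -0.10. *Tfap2b*, its paralog, was at 7.74 and 5.68 FPKM, a log2 ratio of 0.44. The level of *Tfap2b* per length was thus 0.760 times that of *Tfap2a* in wildtype and 1.11 times in mutant embryos, and the order of the paralogs differed between the genotypes. The libraries did not keep the strand, and antisense genes annotated in GENCODE overlap 14.6% of the exonic bases of *Tfap2a*, so reads of these and of *Tfap2a* cannot be told apart there. No annotated gene shared exonic bases with *Tfap2b*.

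*Ets1*, a factor of the cranial crest that is also strongly expressed in endothelium, was the most abundant gene of the set. It was at 19.2 FPKM in the mutant and 22.0 FPKM in the wildtype embryos, with the lowest log2 ratio of the set (-0.20). *Mitf*, which directs the pigment cell fate and is also expressed in the pigment epithelium of the eye, was the least abundant. It was at 0.973 and 0.997 FPKM, just under the mean of 1 FPKM asked for, and its log2 ratio was -0.03. Its value sums the isoforms from its several promoters, of which RefSeq lists 3.

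Among the receptors, *Ngfr*, which encodes the low-affinity neurotrophin receptor p75 found on migrating crest and early glia, had the highest log2 ratio of the set. It was at 10.6 FPKM in the mutant and 7.37 FPKM in the wildtype embryos, a log2 ratio of 0.51 or 1.43-fold. *Ednrb*, the endothelin receptor required by the crest cells that form enteric neurons and pigment cells, was at 14.3 and 11.1 FPKM, a log2 ratio of 0.36 or 1.28-fold. *Erbb3*, the neuregulin receptor of Schwann cell precursors, was at 4.70 and 5.03 FPKM, a log2 ratio of -0.10. *Erbb3* thus stayed beside *Sox10* (0.608 times its level in mutant and 0.633 times in wildtype embryos), whereas *Ngfr* was at 1.37 times the level of *Sox10* in mutant and 0.927 times in wildtype embryos.

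Few loci of like abundance had log2 ratios as high as those of *Ngfr*, *Tfap2b* and *Ednrb*. Of 4587 loci with a mean FPKM within 2-fold of that of *Ngfr*, 134 (2.92%) had a log2 ratio at least as high. The corresponding counts were 203 of 4667 loci (4.35%) for *Ednrb* and 215 of 4301 loci for *Tfap2b*. Among the other 6 genes, 10.8% of loci of like abundance were at least as low as *Ets1*, and 41.4% at least as low as *Sox10*. These shares describe the spread over loci and are no measure of the spread between embryos.

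**Figure D2:**
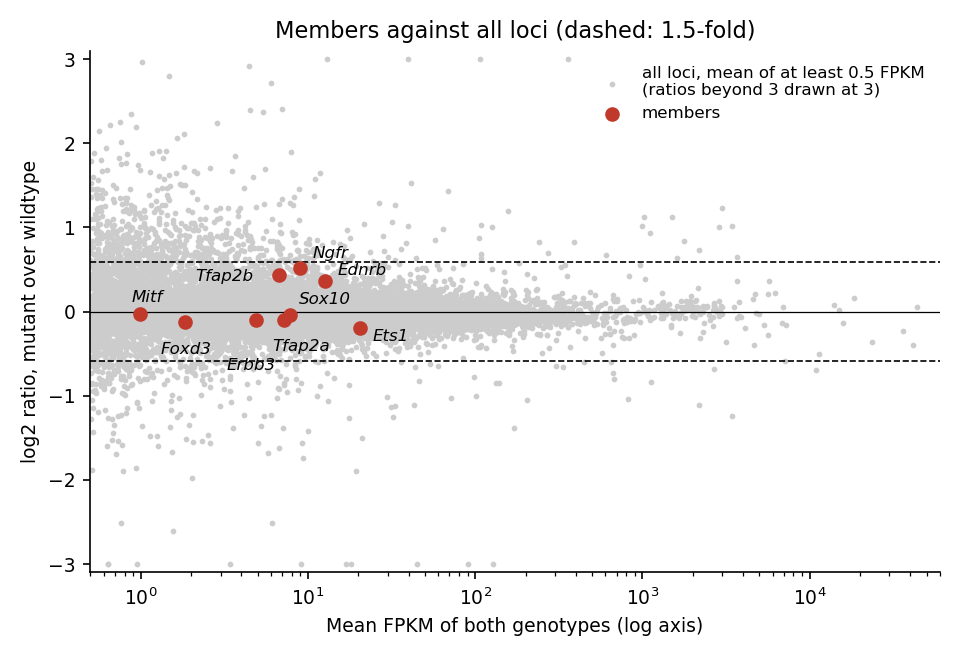
Log2 ratio of mutant over wildtype embryos against the mean FPKM of both genotypes (log axis), with the 9 genes in red, all loci averaging 0.5 FPKM or more in grey and the dashed lines at 1.5-fold. All 9 genes lie between the dashed lines, with *Ngfr*, *Tfap2b* and *Ednrb* above the dense band of loci around 0.

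The order of abundance was similar at its ends and differed in the middle. In both genotypes *Ets1* came first and *Ednrb* second, while *Erbb3*, *Foxd3* and *Mitf* took the last places. In wildtype embryos *Sox10*, *Tfap2a*, *Ngfr* and *Tfap2b* followed *Ednrb* in that order, within a range of 5.68 to 7.95 FPKM. In mutant embryos the order was *Ngfr*, *Tfap2b*, *Sox10* and *Tfap2a*, from 10.6 down to 6.98 FPKM. Without values per embryo, whether neighbours in these orders differ beyond their spread is not known.

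The upstream sequences of 4 genes are shown, the 3 genes with the highest log2 ratios and *Foxd3*, since these allow matches to the motifs of factors in the set itself to be read beside the values. They come from RefSeq on GRCm38.p6, the same assembly as MM10, which listed 9 promoters for 6 of the 9 genes. Shown are the 250 bases before the transcription start, or 213 bases for *Ngfr*, whose annotated first exon in GENCODE begins earlier. The windows of *Tfap2b* and *Ednrb* lie in an intron of a longer annotated transcript of the same gene. Capitals mark matches, on either strand, to the AP-2 motif GCCNNNGGC, the SOX motif ACAAAG, the E-box motifs CACGTG and CATGTG that MITF can bind, and the ETS motif CCGGAA.
Ngfr, chr11:95587736-95587948, minus strand: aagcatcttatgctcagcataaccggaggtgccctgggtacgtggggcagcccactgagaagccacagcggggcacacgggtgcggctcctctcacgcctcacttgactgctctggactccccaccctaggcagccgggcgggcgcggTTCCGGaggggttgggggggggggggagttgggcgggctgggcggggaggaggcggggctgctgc
Tfap2b, chr1:19211804-19212053, plus strand: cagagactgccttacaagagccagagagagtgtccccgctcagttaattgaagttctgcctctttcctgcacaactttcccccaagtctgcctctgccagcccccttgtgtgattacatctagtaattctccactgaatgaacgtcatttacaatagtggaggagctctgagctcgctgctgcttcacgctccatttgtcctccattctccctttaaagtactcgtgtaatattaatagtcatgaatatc
Ednrb, chr14:103843702-103843951, minus strand: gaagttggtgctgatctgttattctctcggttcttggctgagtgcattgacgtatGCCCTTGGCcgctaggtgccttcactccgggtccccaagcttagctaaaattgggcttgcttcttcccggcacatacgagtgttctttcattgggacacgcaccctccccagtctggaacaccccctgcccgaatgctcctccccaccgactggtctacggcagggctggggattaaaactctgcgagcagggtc
Foxd3, chr4:99656049-99656298, plus strand: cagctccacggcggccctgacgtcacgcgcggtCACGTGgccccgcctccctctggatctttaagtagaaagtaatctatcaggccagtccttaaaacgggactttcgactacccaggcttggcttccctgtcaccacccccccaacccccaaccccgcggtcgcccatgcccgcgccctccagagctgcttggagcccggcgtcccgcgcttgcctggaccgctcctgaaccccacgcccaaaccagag

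Few matches were found, and these lay upstream of genes with log2 ratios above 0 and below 0. Over the 9 upstream windows of the set, the AP-2 motif was found in 1 (*Ednrb*), the ETS motif in 1 (*Ngfr*), CACGTG in 1 (*Foxd3*), and ACAAAG and CATGTG in 0. Among all 32851 upstream windows of the same length in the RefSeq table, 13.7% held the AP-2 motif, 12.0% the ETS motif, 6.02% CACGTG, 16.5% ACAAAG and 12.3% CATGTG. The window of *Tfap2b* held none of these letters. The 9 windows had a median of 10 CpG dinucleotides, against 6 over all windows, and ranged from 3 at the most downstream start of *Mitf* to 21 at *Foxd3*. A match is a description of the sequence and does not show that the factor binds.

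The ligands and partner receptors of *Ednrb*, *Erbb3* and *Ngfr* form the signalling context of these receptors. The list drawn up for this context held 18 genes. Not all of them are ligands or partners of these receptors, since the *Kit* receptor and its ligand were included. Of the 18 genes, 10 reached a mean of 1 FPKM, of which 1 was higher and 0 were lower by 1.5-fold, with a median log2 ratio of -0.12. The endothelin genes counted had log2 ratios below 0, short of 1.5-fold. *Edn3*, the ligand that acts on *Ednrb* in the crest, was at 2.67 FPKM in mutants and 2.91 FPKM in wildtype embryos, and *Edn1* at 1.73 and 2.35 FPKM. *Ece1*, the enzyme that processes both, was at 19.2 and 22.7 FPKM, and *Ednra*, the paralogous receptor, at 11.0 and 12.0 FPKM. *Ednrb* was therefore at 1.29 times the level of *Ednra* in mutant and 0.929 times in wildtype embryos.

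The neuregulin pathway differed little at any of its measured parts. *Nrg1*, the ligand of *Erbb3*, was at 2.09 and 2.25 FPKM, and *Erbb2*, which pairs with *Erbb3* to signal, at 13.8 and 14.6 FPKM. *Erbb3* was at 0.341 times the level of *Erbb2* in mutant and 0.344 times in wildtype embryos, so that this pair kept nearly the same ratio. *Kit*, a receptor of melanoblasts and of blood and germ cell precursors, and its ligand *Kitl* were lower with log2 ratios of -0.33 and -0.30, short of 1.5-fold.

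*Ntf3*, which encodes neurotrophin-3, was the 1 gene of this context counted as higher, at 2.52 FPKM in mutants and 1.55 FPKM in wildtype embryos (log2 ratio 0.67). *Bdnf*, a further neurotrophin gene, was at 0.866 and 0.422 FPKM, a mean under 1 FPKM. *Sort1*, a partner of *Ngfr*, was at 21.3 and 22.2 FPKM.

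**Figure D3:**
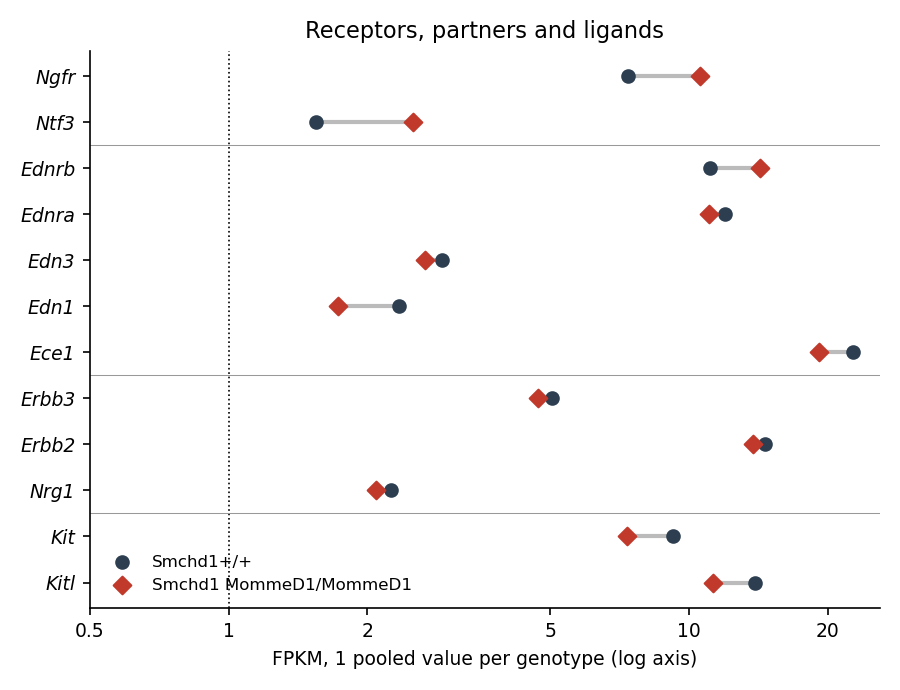
FPKM (log axis) of *Ngfr*, *Ednrb*, *Erbb3* and *Kit* with partner receptors, ligands and the processing enzyme *Ece1*, in *Smchd1*+/+ (dark circles) and *Smchd1*MommeD1/MommeD1 embryos (red diamonds), 1 pooled value per genotype. Red points lie to the right of dark ones for *Ngfr*, *Ntf3* and *Ednrb*, and to the left for the other genes.

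Paralogs of the 9 genes differed by less than 1.5-fold where they could be counted. Of 18 paralogs, 11 reached a mean of 1 FPKM, and 0 of these were higher or lower by 1.5-fold, with a median log2 ratio of 0.03. Over all counted loci 3.54% were higher and 1.46% lower, so a count of 0 among 11 is near those shares. The SoxE paralogs of *Sox10* were at 13.7 and 10.9 FPKM for *Sox9* (log2 ratio 0.32) and at 2.51 and 2.20 FPKM for *Sox8* (0.18). *Tfap2c*, a further AP-2 gene, had a log2 ratio of 0.31. The other paralogs that reached a mean of 1 FPKM (*Foxd1*, *Foxd2*, *Ets2*, *Erg*, *Fli1*, *Ednra*, *Erbb2* and *Tfe3*) had log2 ratios from -0.25 to 0.16. Below that mean, *Tfec*, a paralog of *Mitf*, was at 0.363 and 0.0984 FPKM (log2 ratio 1.22), and the AP-2 gene *Tfap2e* at 0.341 and 0.163 FPKM (0.74).

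Further genes that specify the crest differed by less than 1.5-fold where they could be counted. Of 24 genes listed apart from *Foxd3*, 22 could be counted, with 0 higher and 0 lower by 1.5-fold and a median log2 ratio of 0.08. The same rule was met by 3.54% of all counted loci as higher and 1.46% as lower, so a count of 0 among 22 is near those shares. *Pax7* (3.53 and 2.42 FPKM, log2 ratio 0.53) and *Zic1* (28.0 and 19.5 FPKM, 0.51), both also expressed in the dorsal neural tube, had the highest log2 ratios of these 22, whereas *Mycn* and *Msx1* had the lowest (-0.21 each). *Rxrg*, below a mean of 1 FPKM, was at 0.678 and 0.404 FPKM (0.63). *Snai2* and *Snai1*, repressors that act as crest cells leave the neural tube, were at 7.58 and 7.61 FPKM and at 22.9 and 21.4 FPKM.

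Genes of the derivatives of the crest fell into groups with different values. Of 11 genes of glial precursors and Schwann cells that could be counted, 2 were higher and 0 lower by 1.5-fold (median log2 ratio 0.21). These were *Fabp7*, at 43.1 FPKM in mutants and 20.6 FPKM in wildtype embryos (log2 ratio 1.06), and *L1cam*, at 1.70 and 1.03 FPKM (0.67). *Fabp7* also marks radial glia of the neural tube and *L1cam* also marks axons, so neither is particular to crest glia. *Cdh19*, a marker of Schwann cell precursors, was at 0.479 and 0.567 FPKM. *Pmp22* (log2 ratio -0.37) and *Pou3f1* (-0.20) were the lowest of the 11 counted genes. Below a mean of 1 FPKM, *Egr2*, a factor of myelinating Schwann cells and of the hindbrain, was lower by more than 1.5-fold, at 0.336 and 0.945 FPKM (-1.26).

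Of 12 melanoblast genes found, 3 reached a mean of 1 FPKM, none of which differed by 1.5-fold (*Kit*, *Rab38* and *Mcam*, log2 ratios -0.33, 0.02 and 0.06). The pigment genes *Dct*, *Pmel* and *Tyr* were at 0.247, 0.593 and 0.0409 FPKM in mutants and 0.0309, 0.345 and 0.0330 FPKM in wildtype embryos. Their log2 ratios were 1.41, 0.64 and 0.08, and all were below 1 FPKM like *Mitf*. Other pigment genes at such levels went the other way, among them *Gpr143* (log2 ratio -0.63), *Slc45a2* (-0.17), *Mlana* (-0.13) and *Tyrp1* (-0.05). *Mc1r*, a receptor of mature melanocytes, was listed at 0 in both genotypes. Of 17 counted genes from a list for cranial mesenchyme, 2 were higher and 0 lower by 1.5-fold, among them *Barx1* (log2 ratio 0.73), with a median of 0.24. *Twist1*, the most general of these, was at 57.8 and 54.5 FPKM, and *Dlx6* (-0.35) and *Meox1* (-0.18) were the lowest of the 17. *Meox1* is a gene of the somites, and others of the list are also made in mesoderm outside the head. The values of this list are therefore not particular to the crest.

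Genes of the neuronal derivatives followed in 2 lists. Of 12 genes of the sympathoadrenal and enteric lineages, 3 were higher (among them *Insm1* and *Gfra1*, log2 ratios 0.90 and 0.63) and 0 lower by 1.5-fold, with a median of 0.16. *Ret* and *Hand1* were below 1.5-fold in the other direction, with log2 ratios of -0.43 and -0.35. Of 12 genes of cranial and dorsal root sensory neurons, 5 (41.7%) were higher and 0 lower by 1.5-fold, with a median log2 ratio of 0.55. *Neurod1* was at 5.55 and 2.83 FPKM (log2 ratio 0.95), *Neurod4* at 5.92 and 3.13 FPKM (0.90), and *Neurog1*, which starts sensory neurogenesis in the ganglia, at 7.96 and 4.39 FPKM (0.84). *Ntrk3* (-0.17) and *Eya1* (-0.04) were the lowest of these 12 genes. These factors are also made in neurons of the neural tube, so their values are not particular to the ganglia.

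Markers of other tissues are given because several of the 9 genes are expressed outside the crest. Of 15 neuron genes that could be counted, 13 were higher and 0 lower by 1.5-fold, with a median log2 ratio of 1.37, led by *Cntn2* (2.25) and *Nhlh2* (1.85). Their summed level was 280 FPKM in mutants and 130 FPKM in wildtype embryos. Several of these neuron genes are among those that the study lists for these embryos, so their direction was known when the list was drawn up. The log2 ratios of *Ngfr*, *Tfap2b* and *Ednrb* were above those of *Gap43* and *Isl1*, the lowest of these 15 genes (0.34 and 0.35), and below those of the other 13. The part of neurons in the values of *Ngfr*, *Tfap2b* and *Ednrb* was not tested.

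Endothelial markers, read beside *Ets1*, stayed within 1.5-fold, as did most counted loci. Of 16 genes, 0 were higher and 0 lower by 1.5-fold (median log2 ratio -0.05), from *Tek* (-0.36) and *Flt1* (-0.19) up to *Eng* (0.17) and *Pecam1* (0.31), and their summed level was 154 FPKM in mutants and 157 FPKM in wildtype embryos. Surface ectoderm markers, read beside *Tfap2a*, went both ways. Of 13 genes, 2 were lower (*Krt8* and *Krt18*, log2 ratios -0.64 and -0.63) and 2 higher (*Krt5* and *Krt14*, 0.89 and 0.68), with a median of -0.27 and a summed level of 185 and 255 FPKM. *Krt8* and *Krt18* are keratins of simple epithelia, and *Krt5* and *Krt14* of stratifying epidermis. Of 7 counted genes of the early eye and its pigment epithelium, read beside *Mitf*, 1 was higher (*Lhx2*, 0.63) and 0 lower, with a median of -0.10, a summed level of 58.3 and 54.2 FPKM, and the lowest ratios at *Six6* (-0.31) and *Pax2* (-0.14). *Rpe65*, a gene of mature pigment epithelium, was listed at 0 in both genotypes. The part of these tissues in the values of *Ets1*, *Tfap2a* and *Mitf* was not tested. Of 15 housekeeping genes, 0 were higher and 0 lower by 1.5-fold, with a median log2 ratio of 0.06 and *Pgk1* as the lowest (-0.27).

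**Figure D4:**
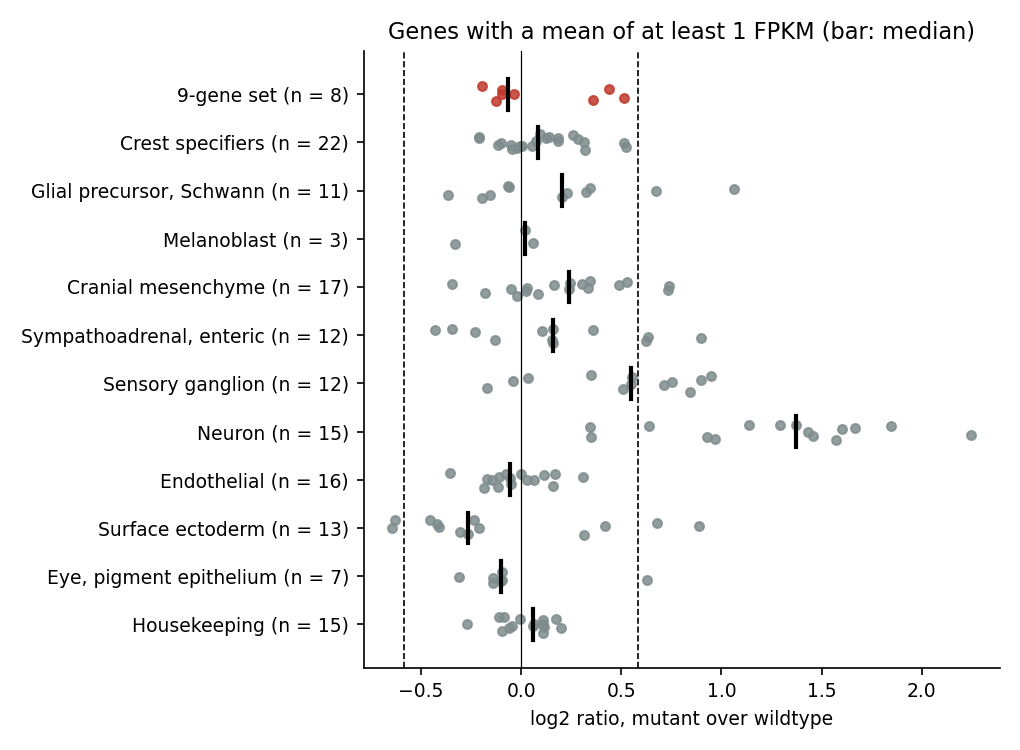
Log2 ratio of mutant over wildtype embryos for genes averaging 1 FPKM or more, 1 point per gene and 1 row per gene list, with the 9-gene set in red, black bars at the medians and dashed lines at 1.5-fold. The red points and the crest specifiers lie between the dashed lines, while sensory ganglion and neuron genes extend to the right, with medians of 0.55 and 1.37.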

How the data were processed

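RNA from 6 male embryos at E9.5, 3 of each genotype, was sequenced by the authors as single-end reads of 100 bp from nondirectional libraries. Reads were aligned to MM10 with TopHat2 2.0.6 and Bowtie2 2.0.2 and the genotypes compared with Cuffdiff 2.0.2, per the submitters' processing notes. The deposited values used here are FPKM, 1 per genotype and locus, pooled over 3 embryos. The deposited table names its 2 conditions by codes, which were read as genotypes from the study's supplementary copy of it. Its fold changes, test statistics, p-values and q-values are the authors' own comparison and were not used. The depth of each library is unknown, and pooled values allow no test across embryos and no interval.

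Of 24207 loci, 134 marked as failed and 1 with too many reads were removed. Log2 ratios were computed with 0.1 FPKM added, and counts used loci averaging 1 FPKM or more and a ratio of at least 1.5-fold. Named were the 9 genes, *Smchd1*, and genes with the highest and lowest ratios of each gene list among those averaging 1 FPKM or more (by the rule, 2 each). Also named were genes averaging 1 FPKM or more in the lists of ligands, partners and paralogs of the 9 genes, *Kitl* among them. Others (*Dct*, *Pmel*, *Tyr*, *Mc1r*, *Gpr143*, *Slc45a2*, *Mlana*, *Tyrp1*, *Rpe65*, *Cdh19*, *Egr2*, *Rxrg*, *Tfec*, *Tfap2e*, *Bdnf*, *Neurog1*, *Twist1*, *Snai1* and *Snai2*) were chosen after their values were seen. The genes and lists were chosen with earlier results of these data known. *Cdh6* was in 2 lists and was not counted, since its locus was marked as failed. Genes in more than 1 list were counted in each. Some genes of these lists are not reported here by name. Alternatives covered the fold, the filter, the pseudocount and the scaling between genotypes. The steps were tested on simulated data. Starts were counted from 1, as 8951 of 20102 symbols then matched RefSeq, against 571 otherwise. Exons were taken from GENCODE M21. Python 3.11.15, numpy 2.4.6, pandas 2.3.3 and matplotlib 3.10.9 were used.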

Additional observations from a re-analysis of the deposited data

How the results depend on the processing

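No paired analysis was possible because the table holds 1 value per genotype, and leaving out each embryo was not possible for the same reason. The limits of the 9 genes are thus the pooling, the unknown depth and the choice of rule. The count of 0 higher genes became 3 with a rule of 25% (*Tfap2b* 0.44, *Ngfr* 0.51 and *Ednrb* 0.36) and stayed at 0 in the other 10 alternatives, while the count of lower genes was 0 in all 11. Not all of these could move a count of 0. The 2-fold rule and the filter at 5 FPKM could only leave it unchanged, and the lower filters could add only *Mitf*. Adding 1 FPKM in place of 0.1 FPKM brings every ratio nearer to 0, so it too could only leave the count unchanged. Over genes averaging 5 FPKM or more the median log2 ratio of the set was 0.16 in place of -0.07, since *Erbb3* and *Foxd3* drop out. With the same total FPKM, *Sox10* (0.0045) and *Mitf* (0.0083) changed sign. Of 72 alternatives for single genes, 67 kept their direction and side of the rule, with ranges of 0.47 to 0.56 for *Ngfr*, 0.39 to 0.48 for *Tfap2b* and 0.33 to 0.40 for *Ednrb*. A changed fold leaves the log2 ratio as it is, so those alternatives bore only on the side of the rule. At 2-fold, or with 1 FPKM added, the side could not change either, since no gene reached 1.5-fold. The amount added cannot change the direction of a ratio.

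Over all loci, 437 were higher and 180 lower. These counts were 122 and 62 at 2-fold, 1098 and 615 with a rule of 25%, 1083 and 478 at averages from 0.1 FPKM, 133 and 78 at averages from 5 FPKM, 1240 and 586 without a filter, and 252 and 109 with 1 FPKM added. In the other 7 alternatives both stayed within 1.5 times. Of 143 alternatives for list medians, 135 kept their sign and moved by at most 0.1, and of 338 for list counts, 294 stayed within 1.5 times. The median turned to -0.061 for glial genes without a filter, to -9.5e-05 for crest specifiers and to -0.13 for melanoblast genes, the last 2 at averages from 5 FPKM. Keeping failed loci, chosen after seeing the data, moved the glial median to 0.072. The neuron median stayed between 1.13 and 1.41, the sensory median between 0.43 and 0.59, and that of surface ectoderm between -0.42 and -0.22.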
